A study of Mus musculus with 15 samples.

Results

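The Rab GTPases are described here in tumor-associated macrophages (TAMs) from mouse liver tumors, gene by gene and across 3 groups of mice. Members were chosen by name alone: every row whose symbol is Rab, a number and at most a letter and a further digit was taken, which gave 59 genes of the 55335 rows. Of these, 58 were above 0 in at least 1 sample, and 40 averaged 1 FPKM or more (fragments per kilobase of transcript per 1000000 mapped fragments) over the 15 samples, as did 11419 genes in all. C57BL/6 mice carried orthotopic hepatocellular carcinoma (HCC) grown from Hepa1-6 cells, a mouse hepatoma line, and TAMs were sorted from the tumors with antibodies to CD11b and F4/80. The tumor cells, not the macrophages, carried the lentiviral construct: a control construct, miR-144 or miR-451a, with 5 TAM samples in each group, all labelled as untreated. No age, sex, clone or pooling of animals is given in the labels, and nothing in them ties a sample to an animal. The study's figure legend gives fewer replicates per group for this RNA-seq than the labels list samples. P-values therefore measure the spread between these samples.

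Rab proteins are small GTPases that act as switches on membranes. An exchange factor loads a Rab with GTP on its own compartment, effectors such as tethers and motors then bind it, a GTPase-activating protein turns it off, and the escort protein and GDI attach it to and lift it from the membrane. In macrophages they carry phagosomes from their early, Rab5 stage to their late, Rab7 stage, return receptors to the surface, and move lysosome-related organelles and secretory granules. The sequences of the miRNAs are shown because they define the groups. RefSeq lists them from the plus strand of chromosome 11 in build GRCm38.p6, the seed (bases 2 to 8) is in capitals, and the labels do not say which arm of miR-144 was meant.
mmu-miR-144-5p: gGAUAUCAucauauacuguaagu
mmu-miR-144-3p: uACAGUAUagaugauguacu
mmu-miR-451a: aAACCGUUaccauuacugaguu
No seed was shared by any pair of the 3.

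The depth implied by the step between low FPKM values ran from 15530000 to 30330000 fragments, with group medians of 23900000 (control), 22400000 (miR-144) and 21360000 (miR-451a). The TAM label was checked against 10 macrophage markers, all of which were detected (11 rows, since Itgam has 2), and their summed level was 9062 to 9924 FPKM in the control, 15848 to 17550 in the miR-144 and 15560 to 16656 in the miR-451a samples. Single markers did not move one way, with Adgre1 (F4/80) at means of 137, 361 and 354 FPKM and Cd68 at 1444, 919 and 910 FPKM in the control, miR-144 and miR-451a groups. Of 8 hepatocyte and hepatoma markers, 7 were listed at 0 in every sample. Summed fibroblast and stellate cell markers, all 5 of them detected, were at 106 to 131, 141 to 209 and 180 to 231 FPKM, and T and NK cell markers, of which 3 of 8 were at 0, at 1.48 to 1.92, 5.77 to 8.92 and 5.32 to 9.57 FPKM. Most of the T and NK sum was Cd4, at means of 1.32, 6.86 and 7.16 FPKM. Klrb1c went the other way, at 0.319, 0.113 and 0.0721 FPKM. Neutrophil markers, 1 of 7 at 0, were at 64.9 to 79.2, 46.4 to 52.3 and 44.2 to 53.3 FPKM, nearly all of it Csf3r, at means of 70.4, 49.0 and 48.3 FPKM. Kupffer cell markers, 1 of 6 at 0, were at 3.44 to 3.96, 17.5 to 50.4 and 16.2 to 47.6 FPKM, monocyte markers at 3.65 to 5.33, 9.66 to 14.8 and 9.67 to 13.6, platelet and erythroid markers at 9.89 to 17.6, 5.65 to 12.5 and 4.59 to 14.4, and endothelial markers at 3.70 to 4.30, 4.68 to 5.05 and 4.67 to 5.93 FPKM. Most of the Kupffer cell sum was Cd5l, at means of 3.40, 29.8 and 27.1 FPKM. Most of the platelet and erythroid sum was Pf4, at 12.5, 6.65 and 7.32 FPKM, while Ppbp went the other way. A sum carried by 1 gene is not read here as a shift of its cell type. Low sums were also higher in the miRNA groups. Dendritic cell markers were at 0.300 to 0.420, 0.632 to 0.784 and 0.548 to 0.817 FPKM. B cell markers, mostly Cd79b, were at 0.138 to 0.379, 1.11 to 1.45 and 1.18 to 1.75. Mast cell and basophil markers were at 0.0537 to 0.134, 0.144 to 0.341 and 0.126 to 0.295 FPKM. The part of these shifts in the results below was not tested, and in bulk RNA fewer cells of a type and less RNA per cell cannot be told apart.

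Which Rab genes the macrophages expressed was read from the FPKM, which is per length and so allows levels of genes to be set side by side. Rab7, the Rab of late endosomes and lysosomes, led the family at a mean of 161 FPKM over all samples, and was followed by the early endosome gene Rab5c at 78.7, Rab8b at 73.8, Rab1b at 63.9, Rab31 at 59.9, Rab1a at 58.1, Rab5b at 49.4, Rab10 at 47.9 and Rab2a at 39.7 FPKM. This order is over groups that differ: Rab10 was at 60.3 to 68.7 FPKM in control, where its mean of 63.6 came next after Rab5c and lay within the spread of Rab8b, Rab1b and Rab1a, and at 38.6 to 42.4 FPKM in the miRNA samples. These 9 genes made up 64.7% of the summed Rab FPKM in the control, 61.9% in the miR-144 and 61.6% in the miR-451a samples. The neighbours Rab1b and Rab1a overlapped in the control samples, at 57.0 to 65.7 and 59.1 to 65.1 FPKM, so their order there lies within their spread. The plot of levels by sample gives the order of the other members. At the bottom, Rab3c was listed at 0 in all 15 samples, and above it came Rab9b at a mean of 0.0014 FPKM, Rab17 at 0.0017, Rab44 at 0.0253, Rab25 at 0.0416, Rab26 at 0.0550, Rab37 at 0.0747 and Rab39b at 0.0765 FPKM.

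**Figure D1:**
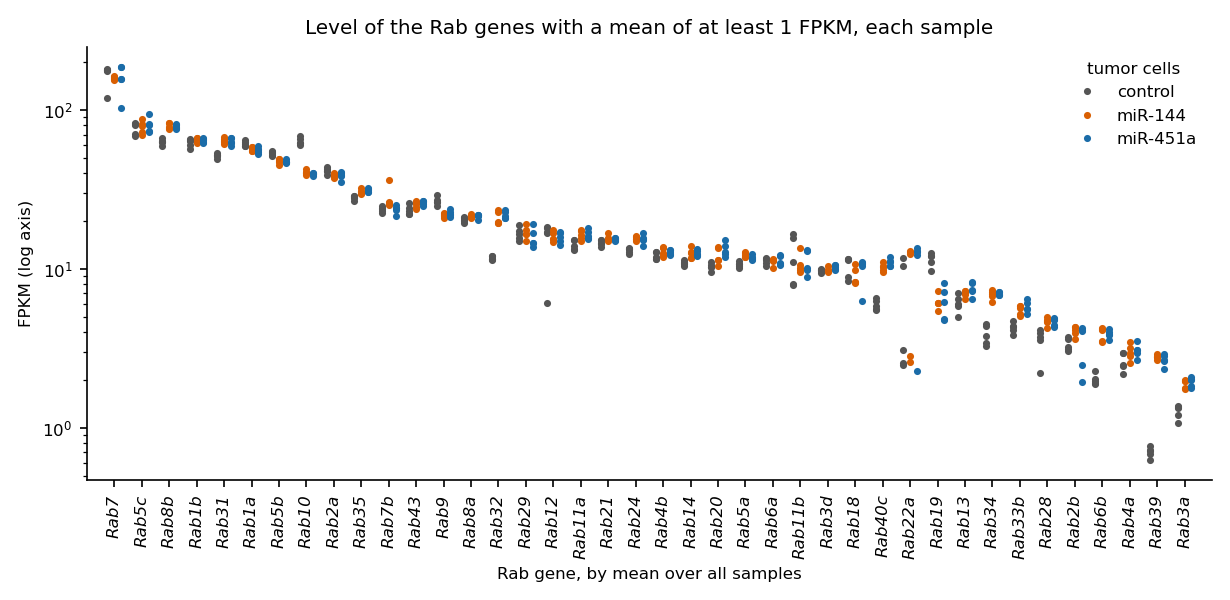
Level of each of the 40 tested Rab genes, on a log axis, with 1 point per sample and the 3 groups side by side within each gene. Levels run from Rab7 at a mean of 161 FPKM down to Rab3a at 1.70 FPKM, the control points of Rab39 lie apart from both miRNA groups, and those of Rab22a are split in every group.

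The summed Rab FPKM was 991 ± 27.1 (SD, n = 5) in the control, 1017.5 ± 3.48 in the miR-144 and 1017 ± 24.4 in the miR-451a samples, and the ranges of 943 to 1009, 1013 to 1021 and 989 to 1045 FPKM overlap between control and miR-451a but not between control and miR-144. As a share of all FPKM, which differ in their sum between samples, the Rab genes made up 0.307% to 0.333%, 0.346% to 0.358% and 0.349% to 0.368%, and there neither miRNA group overlapped with control. Most genes were higher on that scale: after rescaling to TPM the median log2 difference from control was 0.22 and 0.23 over all tested genes. That of the tested Rab genes was 0.24 and 0.22. The members were grouped by the compartment they are best known for. Early endosome and phagosome Rabs stood at 240 ± 8.15, 261 ± 6.82 and 265 ± 10.5 FPKM in the control, miR-144 and miR-451a groups, lysosome-related organelle Rabs at 29.5 ± 1.59, 39.1 ± 1.58 and 38.8 ± 1.71, in which Rab32 was at means of 11.7, 20.97 and 21.9 and Rab29, the other tested member, at 16.6, 17.0 and 15.8, and Rabs of the cilium and less studied Rabs at 10.03 ± 0.982, 15.8 ± 0.644 and 16.5 ± 0.592 FPKM. Recycling and plasma membrane delivery Rabs were at 235 ± 2.38, 234 ± 2.64 and 234 ± 3.50 FPKM, a sum in which Rab8b rose while Rab10 fell. Late endosome and lysosome Rabs were at 233 ± 26.8, 225 ± 3.55 and 220 ± 34.1 FPKM, ER and Golgi Rabs at 233 ± 4.59, 229 ± 2.09 and 229 ± 5.29, and regulated secretion Rabs at 11.5 ± 0.239, 12.9 ± 0.397 and 13.3 ± 0.421 FPKM. The sums have no test of their own. Replicates of the tested Rab genes were close, with a median coefficient of variation of 5.67% against 7.49% over all tested genes.

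To find which Rab genes differed from control, log2(FPKM + 1) was compared with limma, and a gene was called at an adjusted p (Benjamini-Hochberg over all 11419 genes) under 0.05. With miR-144, 20 of the 40 tested Rab genes were higher and 5 lower than control, and with miR-451a 18 were higher and 5 lower. Rab39, Rab32, Rab40c, Rab34 and Rab6b rose most, and Rab19 and Rab10 fell most. The background was high: for miR-144, 67.2% of all tested genes were called (47.1% higher, 20.1% lower), and for miR-451a 68.3% (48.1% higher, 20.3% lower), against 62.5% and 57.5% of the tested Rab genes. A log2 difference of at least 0.5 either way beside the adjusted p was met by 7 Rab genes in each comparison, where 22.8% and 24.5% of all genes met it. The samples of the groups did not overlap in 20 of 40 Rab genes in each comparison, against 53.9% of all genes for miR-144 and 55.2% for the miR-451a comparison. The median difference of the Rab genes was 0.15 and 0.13 on the log2 scale beside 0.13 and 0.14 over all genes, and the median absolute difference was 0.19 and 0.17 beside 0.25 and 0.26. The share of Rab genes called was thus close to the background. Rab39, at a control mean of 0.704 FPKM, passed the filter only through the groups in which it is high, so these counts cover the 40 that passed and not the family.

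**Figure D2:**
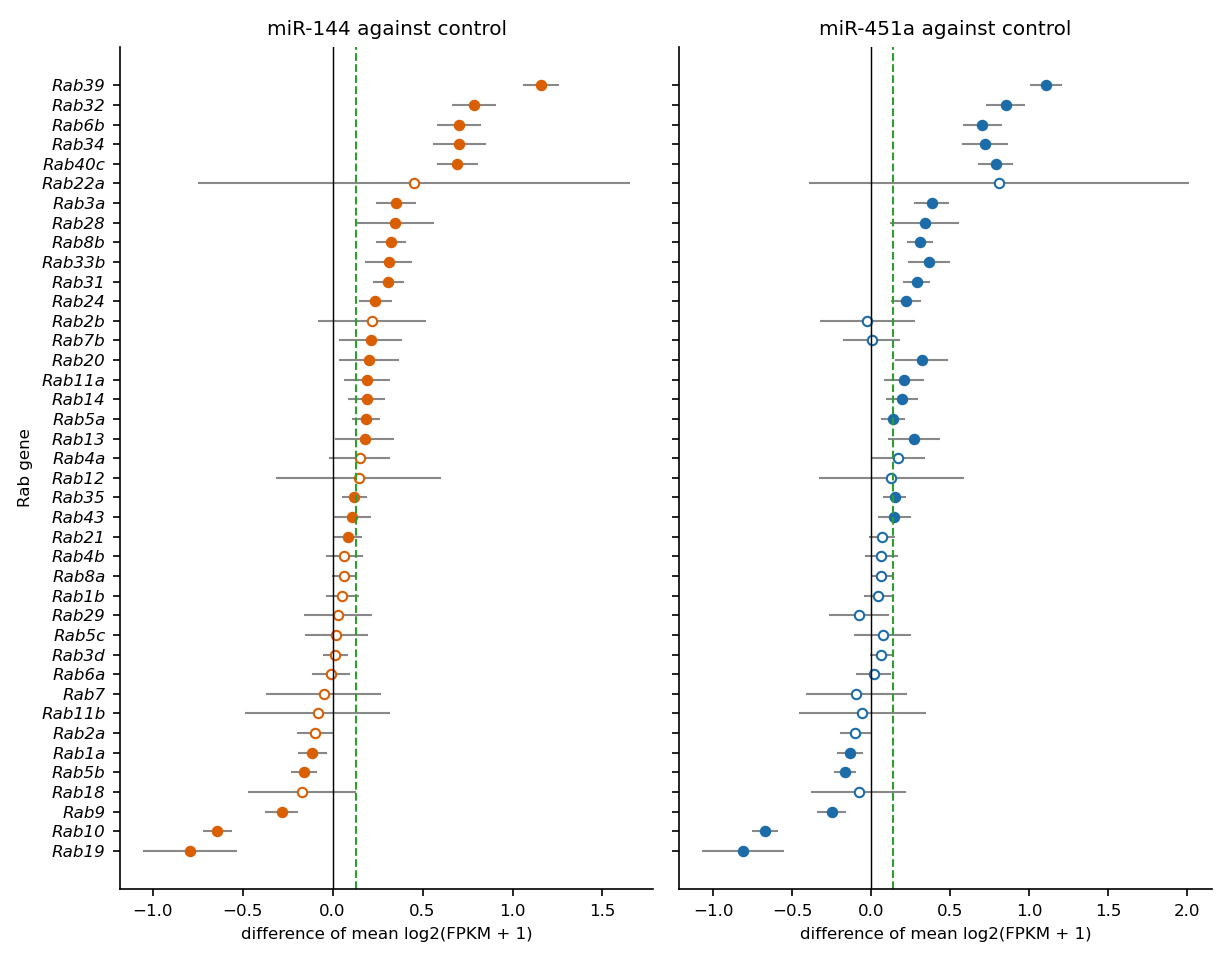
Difference from control in log2(FPKM + 1) for the 40 tested Rab genes, with miR-144 (left) and miR-451a (right), and the 95% confidence interval as a line. Filled points have a limma adjusted p under 0.05, and the dashed line is the median difference of all 11419 tested genes, at 0.13 and 0.14. Rab39, at 1.16 and 1.11, is farthest to the right, and Rab19, at -0.79 and -0.81, farthest to the left of the genes called.

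Both comparisons use the same 5 control samples. Calls differed between them for Rab21 and Rab7b. Rab21 differed from control by 0.08 with miR-144 (adjusted p = 0.0455) and 0.07 with miR-451a (adjusted p = 0.0949), and by -0.02 between the miRNA groups (adjusted p = 1.0), and it was called in both after rescaling to TPM and in neither with median centring, quantile normalization or no filter. Its call with miR-144 was lost in 12 of 19 alternatives. Since the median of all genes lay 0.13 and 0.14 above control, the calls near it depend on scaling. When each sample was centred on its median, 10 Rab genes were higher and 9 lower for miR-144, beside 30.8% and 30.7% of all genes, and 9 and 10 for miR-451a, beside 31.3% and 31.8%. After quantile normalization 11 were higher and 6 lower with miR-144 (all genes 32% and 29.3%), and 12 and 5 with miR-451a (32.9% and 30%). After rescaling to TPM, in which each sample has the same sum, 24 were higher and 4 lower in each comparison, where all genes had 53.7% and 16.4% with miR-144 and 55.6% and 16.3% with miR-451a. Under all 4 scalings and in both comparisons 9 Rab genes were higher, namely Rab39, Rab32, Rab40c, Rab34, Rab6b, Rab3a, Rab33b, Rab8b and Rab31, and 4 were lower, namely Rab10, Rab19, Rab9 and Rab5b. Of all 11419 genes, 26.8% were higher and 14.7% lower under the same condition.

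Rab39 showed the largest rise of the tested Rab genes in both comparisons. It belongs to Golgi-derived vesicles and is found on macrophage phagosomes, and it lies at chromosome 9, 53684110 to 53706232 on the minus strand (GENCODE M21, GRCm38). Rab39 was at 0.762, 0.727, 0.688, 0.624 and 0.718 FPKM in the control samples, at 2.81, 2.83, 2.91, 2.78 and 2.67 with miR-144 and at 2.34, 2.82, 2.62, 2.66 and 2.92 with miR-451a. Every miRNA sample was above every control sample, and the log2 differences were 1.16 with miR-144 (SE 0.04, adjusted p = 5.13e-12) and 1.11 with miR-451a (SE 0.04, adjusted p = 8.00e-12). Since its control mean is under the filter, it entered this fit only through the miRNA groups, and in the fit with no filter the adjusted p was 4.57e-11 and 6.99e-11. Rab32, which directs proteins to lysosome-related organelles and acts in the killing of vacuolar bacteria by macrophages, lies at chromosome 10, 10545002 to 10558265 on the minus strand. In control, Rab32 had 11.5, 12.1, 11.5, 11.4 and 12.03 FPKM, in the miR-144 samples 19.7, 19.5, 22.7, 23.4 and 19.6 and in the miR-451a samples 20.9, 20.8, 22.9, 23.6 and 21.4. The groups with miRNA were again wholly above control, by 0.79 with miR-144 (SE 0.05, adjusted p = 4.80e-09) and 0.85 with miR-451a (SE 0.05, adjusted p = 1.83e-09).

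Rab40c, a Rab with a SOCS box through which it joins a cullin ubiquitin ligase, had a similar rise. Values of Rab40c were 5.53, 5.83, 6.55, 5.58 and 6.27 FPKM in control, 10.3, 9.53, 9.84, 10.5 and 11 in miR-144 and 10.5, 11.2, 11.1, 10.4 and 11.8 in miR-451a. No miRNA sample reached down to the control range, and the log2 differences were 0.69 with miR-144 (SE 0.05, adjusted p = 8.58e-09) and 0.79 with miR-451a (SE 0.05, adjusted p = 1.87e-09). Rab34, which acts at the Golgi and in phagosome maturation, followed the same course. Rab34 was at 4.49, 4.40, 3.43, 3.78 and 3.25 FPKM in the control samples, at 6.98, 6.21, 7.18, 6.75 and 7.37 with miR-144 and at 7.12, 6.91, 6.81, 6.89 and 7.15 with miR-451a. The lowest miRNA sample was above the highest control sample, with log2 differences of 0.70 with miR-144 (SE 0.07, adjusted p = 1.83e-07) and 0.72 with miR-451a (SE 0.07, adjusted p = 1.36e-07). Rab6b, the paralog of Rab6a that is best known from neurons, where it takes part in retrograde transport to the Golgi, rose as well. In control, Rab6b had 2.26, 1.96, 1.91, 1.87 and 2.03 FPKM, in the miR-144 samples 3.53, 3.47, 4.11, 4.24 and 4.19 and in the miR-451a samples 3.89, 3.86, 4.16, 4.0 and 3.58. It did not overlap with control either, and differed by 0.70 with miR-144 (SE 0.05, adjusted p = 2.24e-08) and 0.70 with miR-451a (SE 0.05, adjusted p = 2.17e-08).

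Smaller rises were seen in Rab3a, Rab33b and Rab28. Rab3a, a Rab of secretory vesicles, is low in these cells. Values of Rab3a were 1.20, 1.36, 1.32, 1.07 and 1.37 FPKM in control, 1.99, 1.98, 1.78, 1.75 and 1.95 in miR-144 and 1.82, 2.03, 1.78, 2.01 and 2.09 in miR-451a. All miRNA samples exceeded the control samples, by 0.35 with miR-144 (SE 0.05, adjusted p = 1.30e-05) and 0.38 with miR-451a (SE 0.05, adjusted p = 5.54e-06) on the log2 scale. Rab33b sits on the Golgi and binds the autophagy protein Atg16l1. Rab33b was at 4.28, 4.34, 4.15, 4.71 and 3.83 FPKM in the control samples, at 5.87, 5.23, 5.81, 5.06 and 5.66 with miR-144 and at 6.12, 6.49, 5.60, 5.55 and 5.17 with miR-451a. Here too the groups did not overlap with control, and the log2 differences were 0.31 with miR-144 (SE 0.06, adjusted p = 2.41e-04) and 0.37 with miR-451a (SE 0.06, adjusted p = 4.91e-05). Rab28, linked to cilia and photoreceptors, had 1 control sample far below the rest. In control, Rab28 had 2.20, 3.72, 3.55, 4.12 and 3.97 FPKM, in the miR-144 samples 4.72, 4.77, 4.64, 4.23 and 4.99 and in the miR-451a samples 4.42, 4.75, 4.30, 4.88 and 4.84. The miRNA samples were all above the control samples, by 0.35 with miR-144 (SE 0.10, adjusted p = 0.00633) and 0.34 with miR-451a (SE 0.10, adjusted p = 0.00721), but the call was lost with median centring (adjusted p = 0.0765 and 0.102) and quantile normalization (0.0813 and 0.108). Without the low sample, control replicate 1, the differences were 0.23 (adjusted p = 0.00116) and 0.22 (adjusted p = 0.00148).

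Rab19 fell most among the tested Rab genes. It is a little studied Golgi-associated Rab at chromosome 6, 39381175 to 39390380 on the plus strand. Values of Rab19 were 12.02, 12.6, 9.64, 11.02 and 12.01 FPKM in control, 6.12, 6.06, 5.39, 6.11 and 7.29 in miR-144 and 6.16, 7.10, 4.84, 4.74 and 8.14 in miR-451a. The control samples were all above the miRNA samples, and the log2 differences were -0.79 with miR-144 (SE 0.12, adjusted p = 2.88e-05) and -0.81 with miR-451a (SE 0.12, adjusted p = 2.16e-05). Rab10, at chromosome 12, 3247428 to 3309969 on the minus strand, delivers cargo such as the glucose transporter Slc2a4 and the receptor Tlr4 to the plasma membrane. Rab10 was at 61.8, 61.6, 65.8, 68.7 and 60.3 FPKM in the control samples, at 42.4, 40.3, 39.99, 38.9 and 40.5 with miR-144 and at 39.4, 39.7, 38.6, 40.3 and 39.97 with miR-451a. The groups lay far apart relative to their spread, with differences of -0.64 with miR-144 (SE 0.04, adjusted p = 4.06e-10) and -0.67 with miR-451a (SE 0.04, adjusted p = 2.26e-10). Its share of the summed Rab FPKM was 6.43% ± 0.520 in the control, 3.97% ± 0.114 in the miR-144 and 3.89% ± 0.101 in the miR-451a samples. The antisense gene Rab10os overlaps it and was at means of 2.88, 2.80 and 2.86 FPKM, and the sources used here do not say whether strand was kept.

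Rab9, Rab5b and Rab1a fell by less. Rab9 returns mannose 6-phosphate receptors from late endosomes to the Golgi. In control, Rab9 had 26.3, 29.2, 24.9, 26.5 and 27.2 FPKM, in the miR-144 samples 21.04, 21.5, 22.5, 21.9 and 22.3 and in the miR-451a samples 22.9, 23.9, 21.2, 21.8 and 22.05. The control samples were all higher, and the log2 differences were -0.28 with miR-144 (SE 0.04, adjusted p = 2.10e-05) and -0.25 with miR-451a (SE 0.04, adjusted p = 6.46e-05). Rab5b, 1 of the 3 Rab5 paralogs of early endosomes, was among the steadiest members. Values of Rab5b were 53.4, 51.3, 54.03, 54.9 and 52.3 FPKM in control, 44.96, 47.7, 48.97, 47.1 and 49.3 in miR-144 and 46.9, 49.5, 47.1, 46.3 and 46.8 in miR-451a. Its groups did not overlap with control in spite of the small differences of -0.16 with miR-144 (SE 0.03, adjusted p = 3.31e-04) and -0.17 with miR-451a (SE 0.03, adjusted p = 2.01e-04). Rab1a, which acts in transport from the ER to the Golgi, differed least among the genes called lower in both comparisons. Rab1a was at 61.3, 65.1, 62.6, 59.1 and 59.7 FPKM in the control samples, at 57.2, 55.5, 58.1, 58.8 and 54.9 with miR-144 and at 57.1, 55.8, 54.7, 59.2 and 52.8 with miR-451a. The miR-144 samples were all below control, 1 control sample at 59.1 FPKM lay just below a miR-451a sample at 59.2 FPKM, and the log2 differences of -0.11 with miR-144 (SE 0.04, adjusted p = 0.0122) and -0.14 with miR-451a (SE 0.04, adjusted p = 0.00327) were not called after rescaling to TPM (adjusted p = 0.327 and 0.194), nor that with miR-144 after quantile normalization (0.0624).

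**Figure D3:**
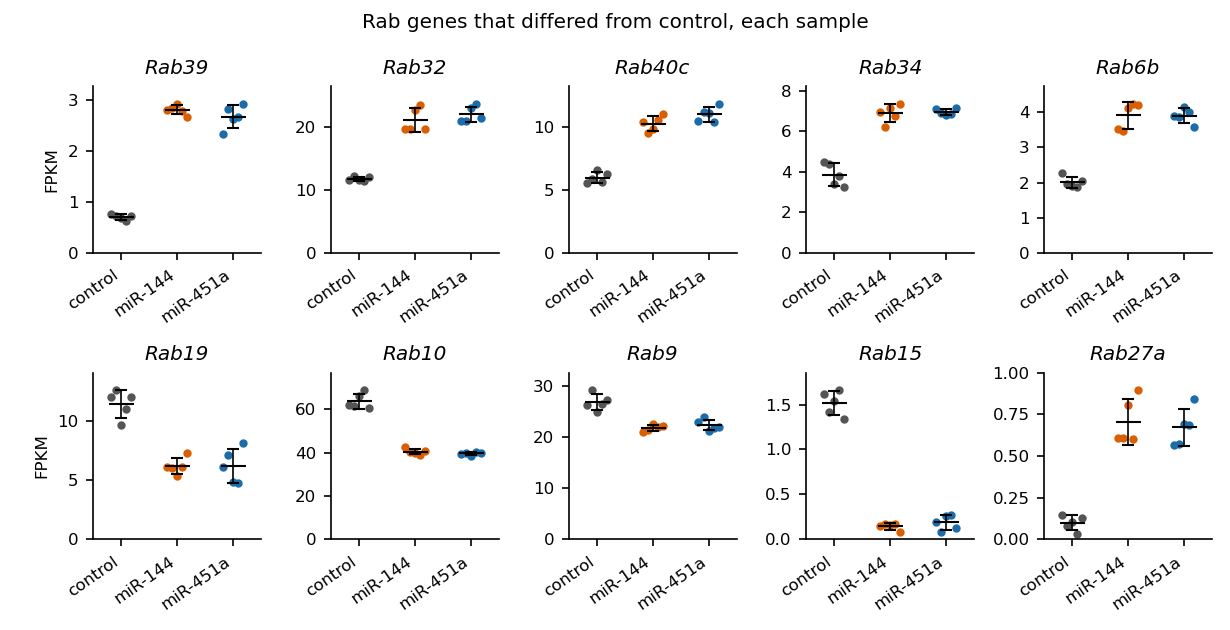
FPKM in each of the 15 samples for 10 Rab genes, with the mean and SD of each group of 5 in black and axes that start at 0. Rab39, Rab32, Rab40c, Rab34, Rab6b and Rab27a lie higher in both miRNA groups than in control, and Rab19, Rab10, Rab9 and Rab15 lower, with no overlap in any of them.

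Promoters of some of the members that rose and fell most are shown, each with a single RefSeq start, so that their sequences can be compared. That of Rab6b, which also has a single start, is not shown. Each covers 250 bases before to 50 after the start in GRCm38.p6, 5′ to 3′ on the strand of the gene, with matches to the searched motifs in capitals, on either strand. The RefSeq and GENCODE starts of Rab19, Rab32 and Rab40c differ. Rab39 lies at chr9:53706183-53706482, minus strand, Rab32 at chr10:10558158-10558457, minus strand, Rab40c at chr17:25919665-25919964, minus strand, Rab10 at chr12:3309920-3310219, minus strand, and Rab19 at chr6:39381103-39381402, plus strand.
Rab39: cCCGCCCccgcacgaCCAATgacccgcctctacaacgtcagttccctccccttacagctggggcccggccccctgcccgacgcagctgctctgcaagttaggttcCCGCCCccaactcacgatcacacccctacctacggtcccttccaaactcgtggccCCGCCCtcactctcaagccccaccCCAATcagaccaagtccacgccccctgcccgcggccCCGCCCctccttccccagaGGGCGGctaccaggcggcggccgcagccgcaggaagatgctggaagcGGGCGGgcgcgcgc
Rab32: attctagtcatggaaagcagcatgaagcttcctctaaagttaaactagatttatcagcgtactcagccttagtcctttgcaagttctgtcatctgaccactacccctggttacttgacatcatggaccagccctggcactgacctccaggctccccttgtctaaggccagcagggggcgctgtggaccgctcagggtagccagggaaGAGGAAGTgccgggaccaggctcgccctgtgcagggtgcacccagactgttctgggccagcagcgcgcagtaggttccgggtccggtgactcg
Rab40c: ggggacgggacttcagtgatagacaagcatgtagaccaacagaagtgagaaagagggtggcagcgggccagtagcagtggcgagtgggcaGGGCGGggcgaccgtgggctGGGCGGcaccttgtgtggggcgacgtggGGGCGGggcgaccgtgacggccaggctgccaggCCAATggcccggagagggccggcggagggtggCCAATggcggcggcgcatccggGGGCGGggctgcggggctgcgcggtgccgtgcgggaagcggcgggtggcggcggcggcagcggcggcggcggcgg
Rab10: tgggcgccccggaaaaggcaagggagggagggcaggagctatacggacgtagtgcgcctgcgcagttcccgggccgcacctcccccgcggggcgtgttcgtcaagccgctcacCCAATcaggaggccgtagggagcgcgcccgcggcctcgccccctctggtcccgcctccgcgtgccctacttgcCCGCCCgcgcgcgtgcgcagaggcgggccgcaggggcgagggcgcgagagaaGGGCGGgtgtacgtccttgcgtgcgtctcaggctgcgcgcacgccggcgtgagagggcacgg
Rab19: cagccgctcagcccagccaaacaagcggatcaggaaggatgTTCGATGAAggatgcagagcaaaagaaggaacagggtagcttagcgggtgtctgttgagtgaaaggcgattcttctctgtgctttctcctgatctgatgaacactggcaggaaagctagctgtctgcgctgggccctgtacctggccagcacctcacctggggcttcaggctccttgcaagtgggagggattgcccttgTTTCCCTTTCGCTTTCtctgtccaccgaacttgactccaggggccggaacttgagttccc
Counted from 1 at the 5′ end, the only capitals in the Rab32 promoter are a PU.1 core (GAGGAAGT) at bases 208 to 215, and those near the start of Rab19 are 2 overlapping matches of the interferon-stimulated response element core (GAAA, any 2 bases and GAAA again) at bases 241 to 250 and 247 to 256. The GAS motif (TTCNNNGAA) matched once in Rab19, at bases 42 to 50. Capitals in the Rab39, Rab40c and Rab10 promoters are GC boxes (GGGCGG) and CCAAT boxes (CCAAT), with 6 GC boxes in Rab39, 4 in Rab40c and 2 in Rab10.

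Over the 60 promoters of the 48 members found in the table outside chromosome 18, 68.3% held a GC box, against 35.7% of all 32851 promoters, and 43.3% a CCAAT box against 37.4%. The TATA box (TATAAA) was found in 6.7% against 13.6%. The E-box CACGTG was in 10% of member promoters and 7.2% of all. Its longer form TCACGTGA, the core of the element bound by the lysosomal regulator Tfeb, which contains the E-box and so overlaps each of its matches, was in 5.0% and 1.0%, namely in 3 promoters, those of Rab5a, Rab21 and Rab24. The PU.1 core was in 3.3% against 3.2%, GAS in 8.3% against 8.3%, and the interferon element core in 1.7% against 3.4%, Rab19 being the 1 member. A match is a description of the letters in the window.

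Among the early endosome and phagosome Rabs, 9 were tested, 6 of which were higher and 1 lower with miR-144, and 5 higher and 1 lower with miR-451a, or 77.8% and 66.7% called beside 67.2% and 68.3% of all genes. Rab31, which carries cargo between the trans-Golgi network and endosomes, was the most abundant that rose. In control, Rab31 had 52.2, 53.8, 49.4, 52 and 51.5 FPKM, in the miR-144 samples 61.2, 64.2, 66.1, 67.7 and 62.9 and in the miR-451a samples 62.04, 63.03, 66.2, 66.4 and 59.5. Its miRNA samples were all above control, by 0.31 with miR-144 (SE 0.04, adjusted p = 2.87e-06) and 0.29 with miR-451a (SE 0.04, adjusted p = 5.96e-06). Rab5a, which drives fusion of early endosomes and phagosomes, rose while its paralog Rab5b fell. Values of Rab5a were 10.1, 10.7, 10.5, 11.2 and 10.8 FPKM in control, 11.8, 11.9, 12.6, 12.7 and 12.1 in miR-144 and 12.4, 11.6, 11.9, 11.4 and 11.6 in miR-451a. The groups did not overlap, but the log2 differences of 0.19 with miR-144 (SE 0.03, adjusted p = 1.35e-04) and 0.14 with miR-451a (SE 0.03, adjusted p = 0.00164) were not called with median centring (adjusted p = 0.183 and 0.861), where that with miR-451a was -0.0071, or with quantile normalization (0.0643 and 0.650). Rab5c, the most abundant of the 3, spread widely in every group. Rab5c was at 81.1, 68.5, 80.6, 83.4 and 70.8 FPKM in the control samples, at 87.9, 81.1, 70.04, 72.5 and 78.9 with miR-144 and at 80.8, 94.9, 74.1, 72.8 and 82.2 with miR-451a. The ranges overlapped and the log2 differences of 0.02 with miR-144 (SE 0.08, adjusted p = 0.825) and 0.07 with miR-451a (SE 0.08, adjusted p = 0.444) were not called. Rab20, known on macrophage phagosomes, was higher. In control, Rab20 had 10.2, 9.62, 11.1, 10.6 and 10.2 FPKM, in the miR-144 samples 11.3, 10.5, 13.8, 13.5 and 11.4 and in the miR-451a samples 12.4, 11.8, 15.2, 12.7 and 13.9. A miR-144 sample at 10.5 FPKM lay within the control range, and the differences were 0.20 with miR-144 (SE 0.08, adjusted p = 0.0275) and 0.32 with miR-451a (SE 0.08, adjusted p = 0.0015). With miR-144 the Rab20 call was lost without control replicate 2 (adjusted p = 0.0659), miR-144 replicate 3 (0.0777) or miR-144 replicate 4 (0.0753), with no filter on low values (0.0573) and with quantile normalization (0.358), and in both comparisons with median centring (0.481 and 0.0655).

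Of the 4 tested late endosome and lysosome Rabs, 1 was higher and 1 lower with miR-144, and 1 lower with miR-451a, so that 2 and 1 of the 4 were called, where 67.2% and 68.3% of all genes were. Rab7, the main Rab of phagosome and lysosome fusion, did not pass the test. Values of Rab7 were 177, 181, 179, 119 and 178 FPKM in control, 164, 154, 161, 159 and 158 in miR-144 and 186, 103, 156, 187 and 157 in miR-451a. A control sample at 119 FPKM and a miR-451a sample at 103 FPKM stood below all the others, and the log2 differences were -0.05 with miR-144 (SE 0.15, adjusted p = 0.779) and -0.09 with miR-451a (SE 0.15, adjusted p = 0.59). Without control replicate 4, the low control sample, they were -0.17 (adjusted p = 0.280) and -0.21 (adjusted p = 0.171). Leaving out miR-451a replicate 2, the other low sample, moved the miR-451a difference above 0, to 0.052 (adjusted p = 0.691). Quantile normalization turned the sign in both comparisons, to 0.114 (miR-144, adjusted p = 0.519) and 0.0586 (miR-451a, adjusted p = 0.741). TPM rescaling turned it for miR-144 only, to 0.0206 (adjusted p = 0.908). Of the 50-base stretches of Rab7, 14.5% occur in other genes, among them the pseudogene Rab7-ps1, which was at means of 16.7, 13.5 and 12.4 FPKM. Rab7b, which slows Toll-like receptor signalling from lysosomes in macrophages, had a high miR-144 sample. Rab7b was at 23.8, 24.2, 22.98, 22.5 and 24.8 FPKM in the control samples, at 25.8, 36.2, 26.2, 25.2 and 25.5 with miR-144 and at 24.3, 21.6, 24.04, 23.5 and 25.1 with miR-451a. Its differences were 0.21 with miR-144 (SE 0.08, adjusted p = 0.0304) and 0.00 with miR-451a (SE 0.08, adjusted p = 0.9751), and the call with miR-144 was lost without control replicate 3 (adjusted p = 0.0586) or 4 (0.0651), with no filter on low values (0.0637), in the fit of both groups alone (0.0569), with median centring (0.419) and with quantile normalization (0.0949). Without miR-144 replicate 2, the high sample, the difference was 0.12 (adjusted p = 0.0239).

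Of 10 tested recycling and plasma membrane delivery Rabs, 5 were higher and 1, Rab10, lower in each comparison, so that 60.0% were called in each, beside 67.2% and 68.3% of all genes, a difference that was not tested. Rab8b rose from 63.2 ± 2.64 FPKM in control to 79.5 ± 3.40 with miR-144 and 78.6 ± 2.17 with miR-451a (SD, n = 5), by 0.32 with miR-144 (SE 0.04, adjusted p = 1.23e-06) and 0.31 with miR-451a (SE 0.04, adjusted p = 1.93e-06), and Rab8a, its paralog in transport to the cell surface, was not called, though it was called higher after rescaling to TPM and lower with median centring. Rab11a, of recycling endosomes, moved by a small step. In control, Rab11a had 13.2, 15.2, 15.3, 13.1 and 13.9 FPKM, in the miR-144 samples 16.2, 15.7, 14.98, 17.2 and 17.5 and in the miR-451a samples 17.2, 16.1, 15.6, 18.1 and 15.4. A miR-144 sample at 14.98 FPKM lay within the control range, and the differences of 0.19 with miR-144 (SE 0.06, adjusted p = 0.00741) and 0.21 with miR-451a (SE 0.06, adjusted p = 0.00465) were not called with median centring (adjusted p = 0.391 and 0.358) or quantile normalization (0.0839 and 0.0736). Rab14, of the trans-Golgi and phagosomes, behaved alike in size. Values of Rab14 were 10.4, 10.9, 10.98, 10.7 and 11.4 FPKM in control, 11.7, 11.8, 14, 12.5 and 12.7 in miR-144 and 12.03, 12.9, 12.2, 13.3 and 12.4 in miR-451a. All miRNA samples were above control, by 0.19 with miR-144 (SE 0.04, adjusted p = 0.00156) and 0.19 with miR-451a (SE 0.04, adjusted p = 0.00119), and median centring again ended the call (0.320 and 0.359), as did quantile normalization (0.158 and 0.146). Rab35 and Rab13 were called higher in both comparisons as well, by 0.12 and 0.15 and by 0.18 and 0.27, but not with median centring, nor for Rab13 after quantile normalization. The call of Rab13 with miR-144 was lost in 11 of 19 alternatives, among them no filter on low values (adjusted p = 0.0866), the replicate block (0.0612) and leaving out control replicate 1, where the difference was 0.12 (0.122).

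The 11 tested ER and Golgi Rabs had 4 higher and 2 lower in each comparison, 54.5% called against 67.2% and 68.3% of all genes, of which Rab39, Rab6b, Rab33b, Rab19 and Rab1a are given above. The fourth that rose was Rab43, by 0.11 with miR-144 (SE 0.05, adjusted p = 0.045) and 0.15 with miR-451a (SE 0.05, adjusted p = 0.0104), but 90.3% of its 50-base stretches are shared with other genes, Gm45140 in the main, so its level is uncertain, and it was not called with median centring or quantile normalization, and with miR-144 in 11 of 19 alternatives, no filter on low values included (adjusted p = 0.0775). Rab1b, Rab2a and Rab6a, at means of 62.4, 64.8 and 64.4 FPKM, 41.6, 38.8 and 38.8 FPKM and 11.2, 11.1 and 11.3 FPKM, were not called in either comparison, but Rab1b was called higher in both after rescaling to TPM, and Rab2a and Rab6a lower in both with median centring. Of the lysosome-related organelle Rabs, Rab29 was not called, with differences of 0.03 and -0.08, except as lower with miR-451a under median centring. Rab38, the closest relative of Rab32, was under the filter. Rab38 was at 1.04, 0.898, 0.651, 1.11 and 0.827 FPKM in the control samples, at 0.349, 0.345, 0.957, 0.951 and 0.566 with miR-144 and at 0.286, 0.795, 1.07, 0.476 and 0.430 with miR-451a. The ranges overlapped, although 3 of the 5 samples in each miRNA group lay below the lowest control sample, and the differences in the fit with no filter were -0.24 with miR-144 (SE 0.14, adjusted p = 0.261) and -0.26 with miR-451a (SE 0.14, adjusted p = 0.207).

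Members with a mean under 1 FPKM were looked at in the fit with no filter on low values, in which 18 of the 19 could enter and 29540 genes were adjusted over. 6 of the 18 were called in each comparison, against 32.8% (miR-144) and 34.2% (miR-451a) of all genes in that fit. Rab15, of recycling endosomes, named here after its values were seen, was at a control mean of 1.52 FPKM and was lower with both miRNAs. In control, Rab15 had 1.62, 1.42, 1.54, 1.66 and 1.34 FPKM, in the miR-144 samples 0.151, 0.170, 0.159, 0.176 and 0.0770 and in the miR-451a samples 0.195, 0.0812, 0.263, 0.274 and 0.130. Control samples lay between 1.34 and 1.66 FPKM and no miRNA sample above 0.274 FPKM, with log2 differences of -1.13 with miR-144 (SE 0.05, adjusted p = 4.12e-10) and -1.08 with miR-451a (SE 0.05, adjusted p = 6.39e-10). Its gene overlaps Fntb on the other strand. Rab27a, which docks secretory granules and exosome-bearing endosomes, moved the other way. Values of Rab27a were 0.147, 0.0799, 0.104, 0.0325 and 0.129 FPKM in control, 0.608, 0.607, 0.804, 0.599 and 0.894 in miR-144 and 0.568, 0.574, 0.689, 0.688 and 0.842 in miR-451a. The groups did not overlap, and the differences were 0.63 with miR-144 (SE 0.06, adjusted p = 7.86e-07) and 0.60 with miR-451a (SE 0.06, adjusted p = 1.14e-06). At the lowest depth 3 fragments would give 0.0610 FPKM of Rab27a, above its lowest control sample, and 4.46% of its 50-base stretches are shared with other genes. Rab23 and Rab36 rose in both comparisons, by at most 0.24 on the log2 scale, Rab44 was called lower in both at group means under the 0.0471 FPKM that 3 fragments would give, while Rab30 was called with miR-144 only and Rab27b with miR-451a only. Rab9b and Rab17 were above 0 in 1 sample each.

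The ratio of the FPKM of paralogs within a sample does not change when the sample is multiplied by a single factor, as in rescaling to TPM. Rab6a over Rab6b was 5.59 ± 0.388 in the control and 2.87 ± 0.384 and 2.92 ± 0.282 in the miR-144 and miR-451a samples, while Rab6a itself was not called, except as lower in both comparisons with median centring and with miR-144 after quantile normalization. Rab10 over Rab13 went from 10.6 ± 1.23 to 5.80 ± 0.276 and 5.32 ± 0.609. The early endosome pair Rab5a over Rab5b stood at 0.200 ± 0.00832, 0.257 ± 0.00931 and 0.249 ± 0.0107, Rab8b over Rab8a at 3.10 ± 0.158, 3.72 ± 0.213 and 3.68 ± 0.139, and Rab3a over Rab3d at 0.129 ± 0.0131, 0.191 ± 0.00873 and 0.190 ± 0.0123. In these 5 pairs no sample of either miRNA group overlapped with control. Rab1a over Rab1b, Rab4a over Rab4b, Rab5c over Rab5a, Rab7b over Rab7, Rab11a over Rab11b and Rab22a over Rab31 overlapped in both comparisons. Rab2a over Rab2b did not overlap with control for miR-144 only, at 12.5 ± 0.961 (control), 9.61 ± 0.867 (miR-144) and 12.8 ± 5.40 (miR-451a). For Rab5c over Rab5b this held for miR-451a only, at 1.44 ± 0.0918, 1.64 ± 0.199 and 1.71 ± 0.144. Of the 50-base stretches of Rab4b, 93.0% occur in other genes, so its level is uncertain. The ratios are descriptions with no test.

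**Figure D4:**
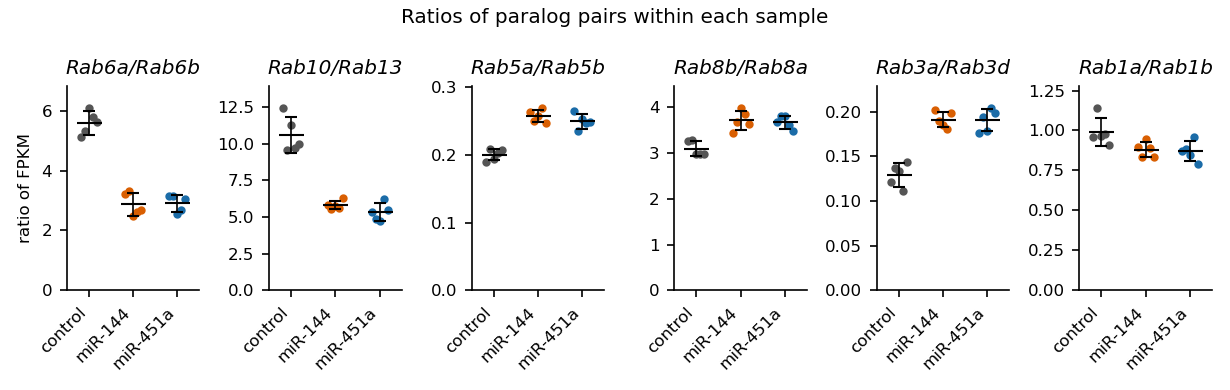
Ratio of the FPKM of 2 paralogs within each sample for 6 pairs, with the mean and SD of each group of 5 in black and axes that start at 0. The ratio of Rab6a to Rab6b falls from 5.59 in control to 2.87 and 2.92, and that of Rab1a to Rab1b overlaps between the groups.

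Whether the macrophages differed between miR-144 and miR-451a tumors was asked with the same fit. None of the 40 Rab genes was called, and 0% of all 11419 genes were, while 596 genes in all and 1 Rab gene had an unadjusted p under 0.05 in limma. That gene was Rab7b, lower with miR-451a by 0.21 on the log2 scale (SE 0.08, 95% interval -0.38 to -0.04, adjusted p = 0.946), and by 0.11 without miR-144 replicate 2 (36.2 FPKM, the next being 26.2). It was also the only one of the 40 whose groups did not overlap, which 0.849% of all genes did not. Under the filter, Rab27b did not overlap either, at 0.0521 to 0.0888 FPKM with miR-144 and 0.0955 to 0.168 FPKM with miR-451a, and it was not called in the fit with no filter (adjusted p = 0.831). For Rab32 and Rab10 the same contrast gave 0.06 (95% interval -0.05 to 0.18) and -0.03 (95% interval -0.11 to 0.05). A p that misses the threshold does not show that the groups are alike.

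Rab22a, an early endosome Rab close to Rab31, had levels of 2 kinds within every group. Rab22a was at 10.4, 2.57, 2.48, 3.11 and 11.7 FPKM in the control samples, at 12.4, 12.7, 2.83, 2.59 and 12.9 with miR-144 and at 2.26, 13.5, 12.98, 12.8 and 12.3 with miR-451a. 6 samples lay between 2.26 and 3.11 FPKM, 3 of them control, 2 miR-144 and 1 miR-451a, and the other 9 between 10.4 and 13.5 FPKM. The step of 3.34-fold between 3.11 and 10.4 FPKM was the largest between neighbouring values of any tested Rab gene. The log2 differences from control were 0.45 with miR-144 (SE 0.56, adjusted p = 0.492) and 0.81 with miR-451a (SE 0.56, adjusted p = 0.214), with 95% intervals of -0.74 to 1.65 and -0.39 to 2.002, and without miR-451a replicate 1 that of miR-451a was 1.23 (adjusted p = 0.0476). The cause was not tested.

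**Figure D5:**
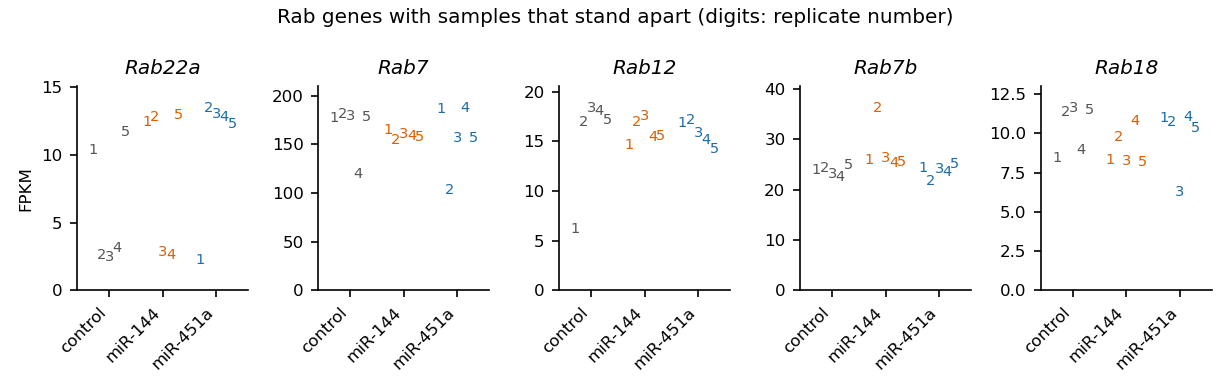
FPKM of 5 Rab genes in each sample, drawn as the replicate number, for the 3 groups, with axes that start at 0. Rab22a splits at 3.11 and 10.4 FPKM in every group, and Rab7, Rab12, Rab7b and Rab18 have a sample that stands apart, such as control replicate 1 at 6.14 FPKM for Rab12.

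Genes that act on or for Rabs were followed in 4 lists, in which 126 of 155 genes in the table were tested. With miR-144, 60 were higher and 29 lower, and with miR-451a 65 were higher and 27 lower, 70.6% and 73.0% of them, beside the 67.2% and 68.3% of all genes. With median centring 50 were lower in each comparison, beside 30.7% and 31.8% of all genes, and 41 and 43 higher, beside 30.8% and 31.3%. Without centring, the median differences of the list genes were 0.08 and 0.12, under the 0.13 and 0.14 of all genes. Of 8 prenylation and GDI genes, miR-144 had 5 higher and 1 lower, and miR-451a 5 and 0, or 75.0% and 62.5% called. Means ± SD (n = 5) are given for control, miR-144 and miR-451a in that order. Both escort proteins rose, Chml from 0.973 ± 0.0588 to 1.87 ± 0.215 and 1.96 ± 0.214 FPKM and Chm from 4.28 ± 0.380 to 5.57 ± 0.311 and 5.89 ± 0.626 FPKM. Chm was named after its values were seen. Chml, Dennd2c, Rin1, St5 and Tbc1d32 had control means under 1 FPKM and passed the filter only through the miRNA groups, so these 5, all called higher in both comparisons, had to differ, and the counts of the lists cover the genes that passed.

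Of 43 exchange factors, 19 were higher and 11 lower with miR-144, and 21 higher and 11 lower with miR-451a, or 69.8% and 74.4% called beside the 67.2% and 68.3% of all genes. Dennd1c, of the DENN family that acts on Rab35, rose from 5.74 ± 0.442 to 19.4 ± 1.04 and 19.96 ± 1.33 FPKM, with log2 differences of 1.60 with miR-144 (SE 0.05, adjusted p = 1.28e-12) and 1.64 with miR-451a (SE 0.05, adjusted p = 9.34e-13), and Madd, which acts on Rab3 and Rab27, from 8.72 ± 0.640 to 15.2 ± 0.387 and 15.2 ± 0.702 FPKM. Ric1, a subunit of the exchange factor of Rab6, fell from 10.97 ± 1.16 to 4.64 ± 0.582 and 4.21 ± 0.360 FPKM, and Dennd2a, which acts on Rab9, from 4.36 ± 0.466 to 1.66 ± 0.178 and 1.66 ± 0.249 FPKM. Of 33 GTPase-activating proteins, 16 were higher and 7 lower with miR-144, and 18 higher and 7 lower with miR-451a (69.7% and 75.8% called, against the same 67.2% and 68.3%). Tbc1d31 rose from 2.15 ± 0.261 to 4.39 ± 0.201 and 4.75 ± 0.295 FPKM and the autophagy regulator Tbc1d14 from 7.46 ± 0.310 to 12.2 ± 0.259 and 12.2 ± 1.16 FPKM, while Tbc1d2, which acts on Rab7, fell from 6.28 ± 0.255 to 3.25 ± 0.0590 and 3.08 ± 0.301 FPKM and Tbc1d16 from 9.18 ± 0.591 to 5.58 ± 0.254 and 5.30 ± 0.181 FPKM. Of 42 effectors, 20 were higher and 10 lower with miR-144, and 21 higher and 9 lower with miR-451a, 71.4% called in each, again beside 67.2% and 68.3%. Unc13d, which joins Rab27a in granule release, rose from 4.61 ± 0.147 to 9.06 ± 0.373 and 9.34 ± 0.361 FPKM, and the kinase Lrrk1 from 4.69 ± 0.249 to 8.24 ± 0.365 and 8.12 ± 0.227 FPKM.

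The effectors that fell most were Rilpl2, which binds Rab8 and Rab10, and its partner, the motor myosin Va (Myo5a). Rilpl2 was at means of 71.7 ± 2.19 FPKM in control, 20.96 ± 1.51 (miR-144) and 20.7 ± 2.47 (miR-451a), with log2 differences of -1.73 with miR-144 (SE 0.07, adjusted p = 6.28e-12) and -1.75 with miR-451a (SE 0.07, adjusted p = 5.01e-12). Myo5a was at 51 ± 6.19 FPKM in control, 30.6 ± 2.54 (miR-144) and 30.6 ± 1.73 (miR-451a), with -0.72 with miR-144 (SE 0.07, adjusted p = 5.10e-07) and -0.71 with miR-451a (SE 0.07, adjusted p = 5.23e-07). Further partners of Rab10, Rab32 and Rab7 were read after their values were seen, and within a family they did not move one way. Dennd4c, an exchange factor of Rab10, was at 53.8 ± 1.48 FPKM in control, 34.03 ± 1.93 (miR-144) and 33.3 ± 2.24 (miR-451a), with log2 differences of -0.65 with miR-144 (SE 0.05, adjusted p = 9.84e-09) and -0.68 with miR-451a (SE 0.05, adjusted p = 5.36e-09). Of its paralogs, Dennd4b was lower too, at 19.6, 16.5 and 17.01 FPKM in control, miR-144 and miR-451a, with -0.23 with miR-144 (SE 0.05, adjusted p = 5.26e-04) and -0.19 with miR-451a (SE 0.05, adjusted p = 0.00258). Dennd4a was higher, at 1.08, 2.18 and 2.22 FPKM, with 0.61 with miR-144 (SE 0.04, adjusted p = 8.15e-09) and 0.63 with miR-451a (SE 0.04, adjusted p = 5.30e-09). The GTPase-activating proteins Tbc1d4 and Tbc1d1, paralogs that both act on Rab10, were called in opposite directions. Tbc1d4 was at 1.77 ± 0.149 FPKM in control, 3.21 ± 0.634 (miR-144) and 3.26 ± 0.470 (miR-451a), with 0.59 with miR-144 (SE 0.10, adjusted p = 6.60e-05) and 0.61 with miR-451a (SE 0.10, adjusted p = 4.25e-05). Tbc1d1 was at 11.1 ± 0.271 FPKM in control, 9.27 ± 0.351 (miR-144) and 9.38 ± 0.504 (miR-451a), with -0.24 with miR-144 (SE 0.04, adjusted p = 3.71e-05) and -0.22 with miR-451a (SE 0.04, adjusted p = 6.57e-05). Hps1 and Hps4, which together form the exchange factor of Rab32 and Rab38, both rose. Hps1 was at 5.56 ± 0.297 FPKM in control, 7.14 ± 0.456 (miR-144) and 7.46 ± 0.422 (miR-451a), with 0.31 with miR-144 (SE 0.05, adjusted p = 3.16e-05) and 0.37 with miR-451a (SE 0.05, adjusted p = 5.71e-06). Hps4 was at 4.54 ± 0.333 FPKM in control, 5.29 ± 0.438 (miR-144) and 5.99 ± 0.218 (miR-451a), with 0.18 with miR-144 (SE 0.05, adjusted p = 0.00609) and 0.34 with miR-451a (SE 0.05, adjusted p = 3.67e-05). The 0.18 lies near the median of all genes, which was 0.13 with miR-144. Whether single regulators keep their calls under other scalings is not given here. Ankrd27, which binds Rab32 and Rab38, was also higher, at 5.72, 7.82 and 7.93 FPKM, with 0.39 with miR-144 (SE 0.03, adjusted p = 4.00e-08) and 0.41 with miR-451a (SE 0.03, adjusted p = 2.27e-08). Sgsm2, a GTPase-activating protein of Rab32, was lower, at 1.75, 1.25 and 1.30 FPKM, with -0.29 with miR-144 (SE 0.05, adjusted p = 4.13e-05) and -0.26 with miR-451a (SE 0.05, adjusted p = 1.41e-04). The exchange factor genes of Rab7, Mon1a, Mon1b and Ccz1, were at means of 6.53, 6.57 and 6.68 FPKM, 9.24, 9.17 and 9.23 FPKM and 11.2, 10.9 and 10.8 FPKM and were not called. Of further GTPase-activating proteins of Rab7, Tbc1d15 was called lower, with -0.13 with miR-144 (SE 0.03, adjusted p = 0.0028) and -0.10 with miR-451a (SE 0.03, adjusted p = 0.0159), and Tbc1d5 higher, with 0.42 with miR-144 (SE 0.15, adjusted p = 0.0188) and 0.75 with miR-451a (SE 0.15, adjusted p = 3.31e-04).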

How the data were processed

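RNA from sorted TAMs was sequenced on an Illumina instrument. Per the labels, the submitters' processing notes name FastQC 0.11.2, STAR and StringTie. Their other versions, the genome build, the annotation and the strand setting are not given in the sources used here. The authors deposited FPKM per Ensembl gene for the 15 samples, and these were not normalized further here. Counts could not be recovered from them: 38.1% to 51.7% of low values lay on a whole-fragment step within a tolerance of 0.05, where chance gives 10%. FPKM depends on the reads of all other genes, and a shift in a few abundant genes moves every value.

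The Rab members, the 4 lists of Rab regulators and the marker lists were chosen with earlier results of these data known. Values were tested as log2(FPKM + 1) in limma 3.58.1 (R 4.3.3; 3 group means in 1 fit, eBayes with a trend, two-sided, Benjamini-Hochberg over 11419 genes that averaged 1 FPKM or more, threshold 0.05). The pseudocount understates the change of low genes. The fit was run on simulated data only to check the code, and no result here rests on that run. Gene by gene values were given for the 8 members that rose and the 8 that fell most among those called in both comparisons with control (5 fell), and for 12 members picked for their role in macrophages. From each list of regulators the 2 largest rises and 2 largest falls were named, except for 1 gene that is not reported here. Alternatives were another pseudocount (0.1), no filter or a mean of at least 5 FPKM, TPM rescaling, median centring, quantile normalization, the replicate number as a block, no trend, the compared groups alone, and each sample left out in turn.

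Of the Ensembl IDs, 99.67% were found in GENCODE M21 (GRCm38), 86.36% with the same symbol, and all 59 members were among them. Shared sequence is the percent of 50-base stretches of a member's longest transcript found in transcripts of other genes. No 2 samples of a group agreed within sampling noise (lowest mean chi-square per gene 3.13). Sequences are from RefSeq (GRCm38.p6), with 48 members matched outside chromosome 18. The labels name no batch. They list 5 samples per group, where the study's figure legend for this RNA-seq gives n = 3, and which samples, if any, share an animal is not given in the sources used here.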

Additional observations from a re-analysis of the deposited data

Results flagged for a closer look

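In groups of 5 samples, the highest or lowest sample was set against its nearest neighbour, and a gap of over 0.71 of the range of the group was taken as a sample far from the others. Of 129 groups from 43 Rab genes, 9 had such a sample, where chance gives about 1 in 20, or 6.5. For Rab7 it was control replicate 4, at 119 FPKM beside 177 FPKM in the next sample, and for Rab12 control replicate 1, at 6.14 beside 16.9 FPKM. With miR-144 it was replicate 2 for Rab7b (36.2 beside 26.2 FPKM) and for Rab11b (13.6 beside 10.6 FPKM), and replicate 5 for Rab15 (0.077 beside 0.151 FPKM). With miR-451a it was replicate 1 for Rab22a (2.26 beside 12.3 FPKM), replicate 2 for Rab5b (49.5 beside 47.1 FPKM), and replicate 3 for Rab8a (20.3 beside 21.4 FPKM) and Rab18 (6.23 beside 10.4 FPKM). The causes were not tested.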

How the results depend on the processing

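Of 884 alternative values for the Rab genes described sample by sample, 835 kept their direction and their side of the threshold, 31 lost the call, 1 gained it and 17 changed sign. Over all 40 tested Rab genes and both comparisons with control (80 calls), rescaling to TPM added 10 calls and ended 2, median centring added 9 and ended 19, and quantile normalization added 2 and ended 16. Leaving out 1 sample added calls for Rab12 with miR-451a, which was -0.148 (adjusted p = 0.0416) without control replicate 1 and 0.128 with it, and, in 1 or both comparisons, for Rab2a, Rab3d, Rab4a, Rab8a and Rab22a. With median centring 10 Rab genes were higher and 9 lower with miR-144, and 9 and 10 with miR-451a, and with quantile normalization 11 were higher with miR-144. The regulator lists, with 126 genes tested, had 50 genes lower in each comparison with median centring and 43 higher with miR-451a, and with quantile normalization 39 higher and 48 lower with miR-144 and 43 and 47 with miR-451a. Of all genes, 30.7% and 31.8% were lower with median centring, and 31.3% higher with miR-451a. After quantile normalization 32% of all genes were higher and 29.3% lower with miR-144, and 32.9% and 30% with miR-451a. The genes of changed sign were mostly not called to begin with. With median centring the differences were -0.112 and -0.0728 for Rab5c with miR-144 and miR-451a, -0.00709 for Rab5a and -0.141 for Rab7b with miR-451a. Quantile normalization gave 0.114 and 0.0586 for Rab7 with miR-144 and miR-451a and -0.0373 for Rab7b with miR-451a, and TPM rescaling gave 0.0206 for Rab7 with miR-144. Leaving out 1 sample at a time gave -0.0215 to 0.0593 for Rab5c with miR-144, -0.209 to 0.052 for Rab7 with miR-451a (above 0 without miR-451a replicate 2) and -0.0173 to 0.0348 for Rab7b with miR-451a. In these fits 17 to 19 Rab genes were higher and 5 to 6 lower with miR-144, and 18 to 20 and 5 to 7 with miR-451a. The regulator lists ranged from 59 to 61 higher and 26 to 31 lower, and from 62 to 65 and 24 to 28. The shares of all genes called in these fits are not given here, and with all samples they were 67.2% and 68.3%. With the replicate block, 19 Rab genes were higher and 5 lower in each comparison, or 60.0% called, beside 67.5% and 68.8% of all genes. The numbers were not taken to pair the samples in the main fit, since the labels do not say that they do. Same-numbered samples correlated at -0.150 to 0.264, with a mean of 0.076 against -0.0189 for other numbers, and 8 of 15 pairs exceeded 0.1. A sample correlated best with its own number in 12 of 30 cases, each a choice among 5 samples. Whether the numbers stand for a pairing was not tested. The causes were not tested. Fragment counts per gene could not be recovered, so the low Rab genes carry a counting error that FPKM does not show.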
